A study of Homo sapiens with 6 samples.

Results

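GAS5, SNHG1, SNHG5, SNHG6, SNHG8, SNHG12, SNHG15, SNHG16 and ZFAS1 are long noncoding RNA genes that carry small nucleolar RNAs (snoRNAs) in their introns. The 9 genes were chosen by name as noncoding, growth-dependent snoRNA hosts, and all 9 were among the 15651 genes that the deposited table lists. RNA sequencing had been performed on MDA-MB-231 cells, an established human triple-negative breast cancer cell line, in 3 libraries from cells treated with DMSO, the solvent control, and 3 from cells treated with BRL-50481, an inhibitor of the cAMP phosphodiesterase PDE7A. The treatment is recorded as 50 μM over 72 h in the study's methods and in the protocol text, but as 5 μM over 48 h in the sample tag, and the difference could not be settled. All samples came from 1 cell line grown in DMEM with serum, and the study describes the 3 libraries of each group as biological replicates. The labels describe mRNA selected with oligo-dT beads, while the series record describes depletion of ribosomal RNA.

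A snoRNA host gene is spliced like other transcripts, but it is the discarded intron that yields the stable product. Box C/D snoRNAs guide ribose methylation and box H/ACA snoRNAs guide pseudouridylation of ribosomal and other RNAs, so these hosts supply the machinery that matures ribosomes. Many host genes start transcription at a terminal oligopyrimidine (TOP) sequence, a C followed by a run of pyrimidines, which ribosomal protein genes share and which links them to growth signalling. The spliced exons of GAS5 and several relatives carry short open reading frames and are degraded by nonsense-mediated decay as they are translated. GAS5 owes its name, growth arrest specific, to its accumulation in cells that stop growing.

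RefSeq places 35 snoRNA genes within the spans of these 9 hosts. GAS5 holds 11, SNHG1 holds 9, SNHG12 holds 4, SNHG16 and ZFAS1 hold 3 each, SNHG5 holds 2, and SNHG6, SNHG8 and SNHG15 hold 1 each. The sequences of 2 hosted box C/D snoRNAs show what these introns contain. SNORD27 lies inside SNHG1 at chr11:62855012-62855083 on the minus strand, and SNORD12B lies inside ZFAS1 at chr20:49280319-49280409 on the plus strand of hg38. Capitals mark the first TGATGA, the core of the C box, and the last CTGA, the D box, in the GENCODE sequences.
SNORD27: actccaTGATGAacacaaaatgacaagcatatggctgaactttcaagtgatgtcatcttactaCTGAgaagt
SNORD12B: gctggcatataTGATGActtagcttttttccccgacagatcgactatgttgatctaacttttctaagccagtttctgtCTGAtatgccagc

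Because TOP starts are the feature for which these hosts are best known, the start sites of the 7 hosts found in the RefSeq promoter table are shown, from 40 bases before the annotated start to the 25 bases that begin with it. Capitals mark 2 features, both read on the strand that has the sequence of the RNA. The first is a TATAA that begins between 45 and 16 bases before the start. The second is an unbroken run of C and T that begins with a C at the start itself. The coordinates are those of GRCh38.p14, and SNHG6 and SNHG15 are named only.
GAS5, chr1:173869021-173869085, minus strand: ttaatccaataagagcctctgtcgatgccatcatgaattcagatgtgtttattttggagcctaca
SNHG1, chr11:62855861-62855925, minus strand: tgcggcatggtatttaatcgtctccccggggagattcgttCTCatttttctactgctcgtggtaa
SNHG5, chr6:85678709-85678773, minus strand: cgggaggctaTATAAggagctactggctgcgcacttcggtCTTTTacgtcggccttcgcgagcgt
SNHG8, chr4:118278722-118278786, plus strand: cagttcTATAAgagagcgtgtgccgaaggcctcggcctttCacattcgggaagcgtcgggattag
SNHG12, chr1:28581849-28581913, minus strand: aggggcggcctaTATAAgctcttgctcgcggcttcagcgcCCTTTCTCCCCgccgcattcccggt
SNHG16, chr17:76557724-76557788, plus strand: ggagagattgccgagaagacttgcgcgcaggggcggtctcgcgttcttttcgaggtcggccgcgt
ZFAS1, chr20:49278602-49278666, plus strand: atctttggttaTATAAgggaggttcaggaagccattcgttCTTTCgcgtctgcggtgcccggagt

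A run of at least 5 pyrimidines began at the annotated start of 3 of these 7 hosts, SNHG5, SNHG12 and ZFAS1, and of 4.04% of all 27305 promoters in the table. TATAA stood in the searched window of 4 of the 7, SNHG5, SNHG8, SNHG12 and ZFAS1, and of 4.54% of all promoters. Both features occurred together in 3 of the 7 hosts and in 26 of all promoters (0.0952%). The run was not particular to these hosts. Of 16 ribosomal protein hosts with an entry, 10 had the run, 0 had TATAA and 0 had both. Of 12 other noncoding hosts with an entry, 3 had the run, 2 had TATAA and 1 had both. SNHG1 begins with a run of 3 that an A interrupts. The RefSeq start of GAS5 lies upstream of the GENCODE span given below. A match of letters in a window is a description and not a measured start.

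Between 30750573 and 33446984 reads per library were assigned to the listed genes, taking the smallest step between values in each library as 1 read. These are sums over the table and not the sequencing depth. DMSO replicate 1 stood apart from its group, and not for the hosts alone. It held the lowest DMSO value of all 9, which was so for 41.6% of all genes tested, and the mean deviation of the hosts from their group means was −0.16 there on the log2 scale, against 0.097 and 0.058 in replicates 2 and 3. Without it, the median log2 fold change of the 9 hosts was −0.90, against −0.83 with all libraries. That library also held the lowest DMSO value of every ribosomal protein host followed below. The log2 deviations of 12251 genes from their group means had an SD of 0.141 in DMSO replicate 1. In DMSO replicates 2 and 3 this SD was 0.119 and 0.0964. Of the markers that define the line, 6 of 6 were present and rose with BRL-50481, among them VIM at 58840.4 ± 2498 and CD44 at 31414 ± 413 normalized counts in DMSO (SD, n = 3 each). Of the markers that triple-negative cells lack, PGR was at most 7.75 in any library and ERBB2 had 1677 ± 75.5 normalized counts in DMSO (SD, n = 3), while ESR1 was not analysed here. EPCAM, CDH1 and GATA3 had 764, 38.2 and 189 normalized counts in DMSO, and of the 4 low markers tested ERBB2, CDH1 and GATA3 rose and EPCAM fell. Among 8 markers of other cell types, the endothelial PECAM1 rose from 357 ± 35.7 to 498 ± 38.3 normalized counts (SD, n = 3 each; limma, adjusted p = 0.000851) and COL1A1 stood at 337 and 338. The other 6 were not analysed here. All libraries came from 1 cultured cell line, and whether any other cells were present was not tested. In bulk RNA, a change in every cell and a change in only some of the cells cannot be told apart.

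The comparison of BRL-50481 with DMSO asks how these transcripts responded to the PDE7A inhibitor. Of the 9 hosts, 8 fell and 0 rose in BRL-50481-treated cells, with adjusted p-values under 0.05 in limma (Benjamini-Hochberg, over 15246 genes tested). Over all genes tested, 29.8% were called lower and 28.9% higher, 58.7% in all. GAS5 and ZFAS1 fell most, to 45.6% and 46.4% of their DMSO means, followed by SNHG1, SNHG5 and SNHG15, and more mildly by SNHG8, SNHG16 and SNHG6. The log2 fold change was negative in all 9, so that 0 would also rise at an unadjusted p under 0.05. SNHG12 did not pass the threshold. The median log2 fold change of the 9 hosts was −0.83, against 0.015 over all genes tested. In 8 of the 9 hosts the highest treated library was below the lowest DMSO library. That separation was found in 32.3% of all genes tested, and the opposite one in 31.9%. A single gene with 3 libraries against 3 cannot give a two-sided exact permutation p below 0.1, so the p-values come from the fit across all genes.

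**Figure D1:**
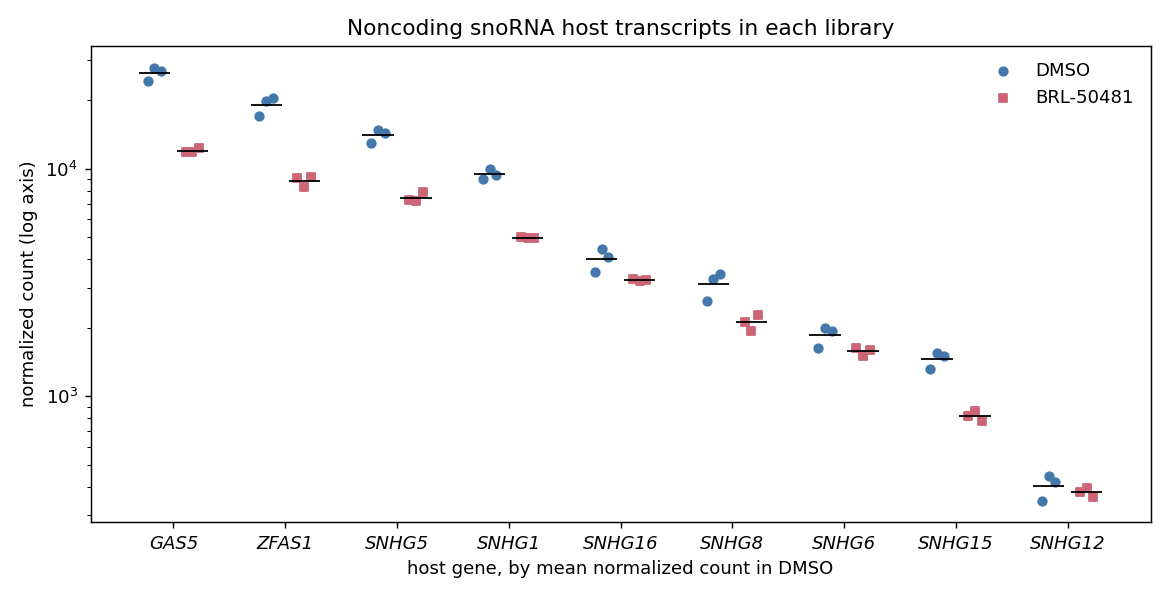
Normalized counts of the 9 noncoding snoRNA hosts on a log axis, with 1 point per library (circles, DMSO; squares, BRL-50481) and bars at the group means of 3 libraries. The groups separate widely for GAS5, ZFAS1, SNHG5, SNHG1 and SNHG15, narrowly for SNHG6, and overlap for SNHG12.

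GAS5 (ENSG00000234741.10, chromosome 1 of hg38, 173858559 to 173868882, minus strand) hosts 10 box C/D snoRNAs and 1 of the H/ACA kind. Its normalized counts were 24207, 27823 and 26909.5 in DMSO replicates 1 to 3 and 11874, 11810.1 and 12286 in BRL-50481 replicates 1 to 3. The groups lay far apart, and the treated libraries were closer together than the DMSO ones. Group means were 26313 ± 1880.3 and 11989.9 ± 258 (SD, n = 3 each), and limma gave a log2 fold change of −1.13 with a standard error of 0.0536 (adjusted p = 4.24e-09). GAS5 was within the 2.46% of tested genes with the most negative log2 fold changes.

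ZFAS1 (ENSG00000177410.13, chromosome 20, 49278178 to 49299600, plus strand) hosts the snoRNAs of the SNORD12 family and lies head to head with the zinc finger gene ZNFX1. It had 16972, 19822 and 20525 normalized counts in the DMSO libraries and 9111, 8311 and 9164 in the BRL-50481 libraries. The lowest DMSO library was again replicate 1, and it lay well above all treated libraries. ZFAS1 had a log2 fold change of −1.10 with a standard error of 0.0672 (limma, adjusted p = 3.41e-08) and group means of 19106 ± 1882 and 8862 ± 478 (SD, n = 3 each). A significant log2 fold change below −1 was reached by GAS5 and ZFAS1 among the 9 hosts, and by 2.98% of all genes tested.

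SNHG5 (ENSG00000203875.13, chromosome 6, 85650491 to 85678932, minus strand), the host of the SNORD50 pair, had 13019.8, 14839 and 14284 normalized counts in DMSO and 7313, 7183 and 7875 in BRL-50481. These groups stood far apart, and the fall to 53.1% of the DMSO mean corresponds to −0.91 on the log2 scale, with 0.0566 as its standard error (limma, adjusted p = 3.94e-08). The host first known for SNORD22, SNHG1 (ENSG00000255717.9, chromosome 11, 62851978 to 62855953, minus strand), had 9020.2, 9946 and 9338 normalized counts in DMSO. Its treated libraries, at 4989, 4943 and 4971, were the most alike of any host, with a coefficient of variation of 0.473%. The log2 fold change of SNHG1 was −0.92, with a standard error of 0.0487 (limma, adjusted p = 1.07e-08).

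SNHG15 (ENSG00000232956.10, chromosome 7, 44983019 to 44986961, minus strand), a short-lived RNA that hosts SNORA9, had 1316, 1539.9 and 1499.5 normalized counts in DMSO and 814, 856 and 773 in BRL-50481. No treated library came near the DMSO range, and the mean fell to 56.1% of that in DMSO, which is −0.83 on the log2 scale with 0.0738 as its standard error (limma, adjusted p = 8.37e-07). SNHG8 (ENSG00000269893.10, chromosome 4, 118278703 to 118285316, plus strand), which hosts SNORA24, had 2610 normalized counts in DMSO replicate 1 and 3267 and 3427 in replicates 2 and 3. Its treated libraries held 2108, 1942 and 2276. The groups did not overlap, and of the 9 hosts SNHG8 had the widest relative spread in both groups. Its log2 fold change was −0.55, with a standard error of 0.0907 (limma, adjusted p = 0.000176).

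The smaller changes belonged to SNHG16, SNHG6 and SNHG12. SNHG16 (ENSG00000163597.17, chromosome 17, 76557727 to 76670985, plus strand), the host of the SNORD1 family, had 3515, 4419.9 and 4097 normalized counts in DMSO and 3283, 3212 and 3245 in BRL-50481. Its treated values were close together and below all DMSO values, at a log2 fold change of −0.30 with 0.0711 as its standard error (limma, adjusted p = 0.00281). SNHG6 (ENSG00000245910.9, chromosome 8, 66920561 to 66926398, minus strand), the host of SNORD87, had 1634, 2001 and 1929.5 in DMSO and 1625, 1499.8 and 1601 in BRL-50481. Its groups were separated by less than 10 normalized counts, between DMSO replicate 1 and BRL-50481 replicate 1, and the log2 fold change of SNHG6 was −0.23, with a standard error of 0.0750 (limma, adjusted p = 0.0174). This call was lost in 5 of the 15 other settings tried, among them without DMSO replicate 2 (adjusted p = 0.0616), DMSO replicate 3 (0.0745) or BRL-50481 replicate 2 (0.0868). The limma adjusted p-values of SNHG6 over the settings reached from 1.31e-06, without DMSO replicate 1, to 0.0868. Leaving out DMSO replicate 1 also gave the smallest limma adjusted p-values of GAS5 and ZFAS1, 1.10e-29 and 3.67e-28. Their log2 fold changes were then −1.19 each, against −1.13 and −1.10 with all libraries. Because limma draws the spread toward a trend over all genes, p-values this small do not measure the replicate spread of either gene.

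SNHG12 (ENSG00000197989.15, chromosome 1, 28578538 to 28583132, minus strand), which hosts 3 H/ACA snoRNAs and 1 box C/D snoRNA, had 347, 444 and 421 normalized counts in DMSO and 381, 395 and 362 in BRL-50481. The groups overlapped, since DMSO replicate 1 was the lowest of all 6 libraries. Its log2 fold change was −0.085, with a 95% interval from −0.30 to 0.13 (adjusted p = 0.489 in limma), so the value estimated for SNHG8, −0.55, lay outside that interval. Its start window, printed above, holds the longest pyrimidine run of the 7 shown, 11 bases, together with TATAA, while ZFAS1, with the same pair of features, had one of the largest falls.

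**Figure D2:**
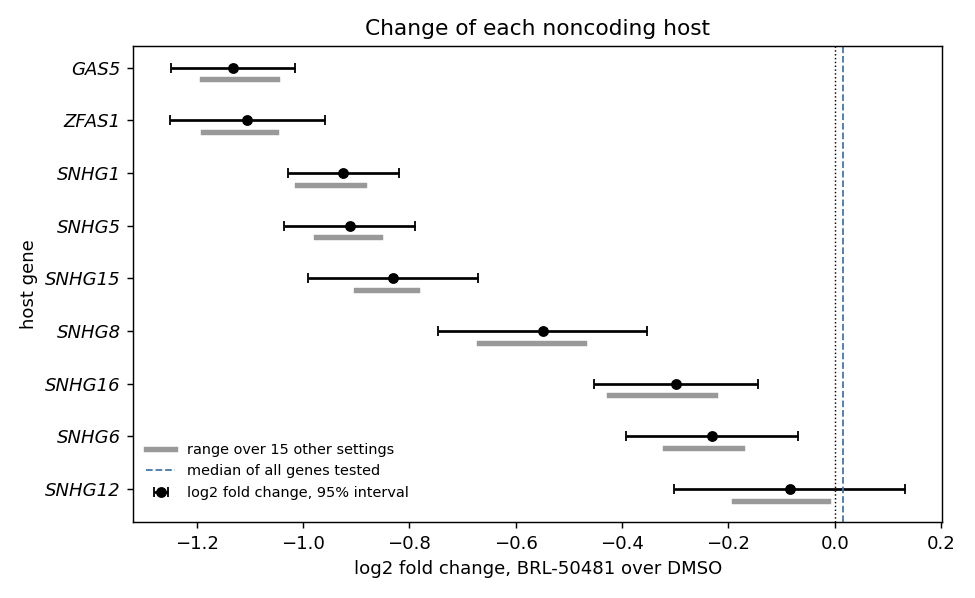
Log2 fold change of each host, BRL-50481 over DMSO, with its 95% interval from limma (points and bars), and the lowest to highest value over the 15 other settings (grey bars). A dashed line marks the median of all genes tested, 0.015. The intervals of GAS5 and ZFAS1 lie entirely below those of SNHG8, SNHG16, SNHG6 and SNHG12, and the interval of SNHG12 crosses 0.

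Ordered by log2 fold change, GAS5, ZFAS1, SNHG1, SNHG5, SNHG15, SNHG8, SNHG16, SNHG6 and SNHG12 form a graded series in which the 95% interval of each host overlapped that of its neighbour. No test of the difference between hosts was made. Levels between genes were compared as normalized counts per kilobase of the median annotated transcript. On that scale the DMSO levels were 35996 ± 2572 for GAS5, 29854 ± 2940.1 for ZFAS1, 12713 ± 844 for SNHG5, 7257 ± 362 for SNHG1 and 6342 ± 886 for SNHG8 (SD, n = 3 each). Below these came SNHG6 at 3873 ± 406, SNHG16 at 1646 ± 188, SNHG15 at 1472 ± 121 and SNHG12 at 373 ± 46.6 (SD, n = 3 each). The SD ranges of SNHG1 and SNHG8 overlapped, as did those of SNHG16 and SNHG15. Hosts with higher DMSO levels per kilobase had the more negative log2 fold changes (Spearman's rho −0.87 across the 9 genes, which share the same libraries). The order of levels depends on which transcript is used, since the annotated transcripts of GAS5 alone span 427 to 3145 bases.

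Together the 9 hosts took 0.223%, 0.257% and 0.252% of the normalized counts in the DMSO libraries and 0.134%, 0.1295% and 0.137% in the BRL-50481 libraries. These shares did not overlap between the groups. In counts, not per length, GAS5 made up 33.0% of the sum on average in DMSO and 29.0% in BRL-50481, and ZFAS1 went from 23.9% to 21.4%. The shares of the less affected hosts grew in turn, that of SNHG16 from 5.02% to 7.85% and that of SNHG6 from 2.32% to 3.80%. SNHG5 kept nearly the same share, with 17.6% and 18.0%.

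Of the 35 snoRNA genes that lie within the hosts, 30 had a row of their own and 28 were tested. These rows collect reads that cover a snoRNA gene, and they are sparse, with no group mean above 119.4 normalized counts. Mature snoRNAs have no poly(A) tail, and since the records differ on oligo-dT selection or ribosomal RNA depletion, whether these reads come from mature snoRNAs or from host precursors was not tested. Of the 28 rows, 8 fell and 0 rose, a share close to the 29.8% called lower over all genes tested. A negative log2 fold change was found in 26, with a median of −0.53. Over the other 98 snoRNA and small Cajal body RNA rows tested, 10 were called lower and the median was −0.27. Among all 126 such rows, the hosted ones included, 1 was called higher.

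SNORD76, a box C/D snoRNA inside GAS5, fell like its host. It had 114, 119.5 and 125 normalized counts in DMSO and 57.4, 62.5 and 61.1 in BRL-50481, −0.97 on the log2 scale (limma, adjusted p = 6.8e-05), and the groups did not overlap. Also inside GAS5, SNORD47 had 106, 109 and 73.5 normalized counts in DMSO and 82.5, 94.7 and 73.7 in BRL-50481. The values of SNORD47 overlapped between the groups (log2 fold change −0.18, adjusted p = 0.397 in limma), so that rows within 1 host did not all give the same picture. SNORD22 and SNORD29, both inside SNHG1, fell by 0.64 and 0.55 on the log2 scale (adjusted p = 0.0092 and 0.0286 in limma). The other rows that fell were SNORD78 and SNORD79 in GAS5, SNORD25 in SNHG1, SNORD87 in SNHG6 and SNORA24 in SNHG8. These 5 calls and that of SNORD29 were each lost when certain single libraries were left out. SNORD27, printed above, had 20.9 normalized counts on average in DMSO and 16.8 in BRL-50481, with overlap between the groups (limma, adjusted p = 0.487).

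Summed over the rows of each host, the snoRNA rows of GAS5 had 428 ± 28.6 normalized counts in DMSO against 301 ± 37.9 in treated cells, and those of SNHG1 had 264 ± 21.2 against 173 ± 11.1 (SD, n = 3 each). These were 70.4% and 65.8% of the DMSO sums, beside 45.6% and 52.7% for the host transcripts. The rows of SNHG12 went from 79.2 ± 11.9 to 56.6 ± 3.70 (SD, n = 3 each) without overlap between the groups, 71.5% of the DMSO sum, while the host itself stood at 93.8%. For SNHG6 and SNHG8, with a single row each, the rows were at 47.3% and 45.3% of DMSO, beside 84.9% and 68.0% for the hosts. Those percentages rest on few reads. The row of SNHG6 went from 24.5 ± 6.75 to 11.6 ± 0.501 normalized counts and that of SNHG8 from 19.0 ± 2.84 to 8.60 ± 4.14 (SD, n = 3 each). The difference between a host and its rows was not tested. The sums of SNHG5, SNHG15, SNHG16 and ZFAS1 overlapped between the groups.

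**Figure D3:**
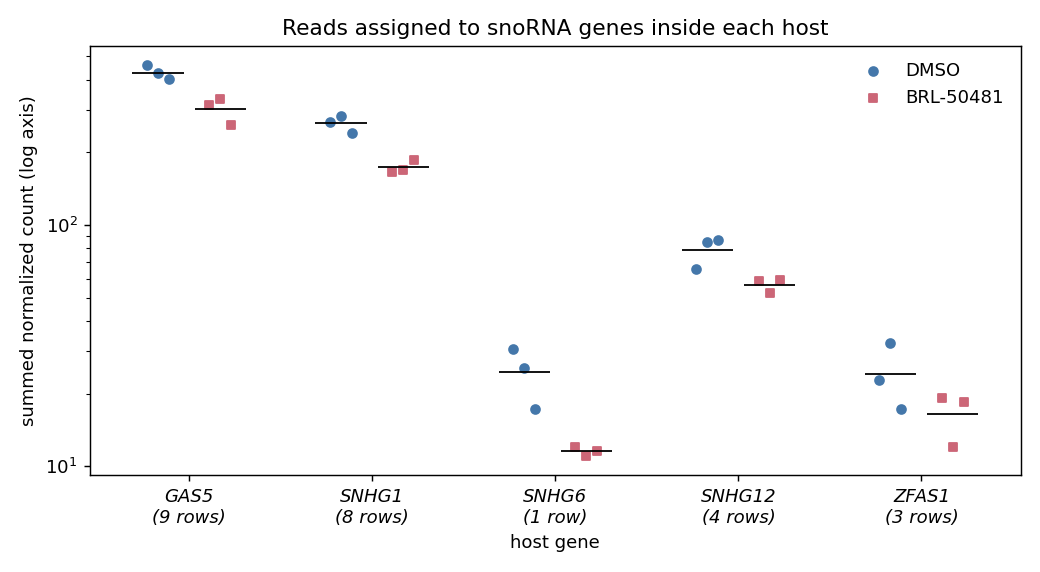
Normalized counts summed over the snoRNA rows inside each host, on a log axis, for the 5 hosts with a DMSO mean of at least 20 (circles, DMSO; squares, BRL-50481; bars, means of 3 libraries). The groups do not overlap for GAS5, SNHG1, SNHG6 and SNHG12, and they overlap for ZFAS1.

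Genes that start close to a host on the opposite strand moved in different directions. SLC3A2, the heavy chain of several amino acid transporters, starts 51 bases from SNHG1 and fell with it. It had 17423, 20317 and 19741 normalized counts in DMSO and 11123, 11448 and 11701 in BRL-50481 (−0.74 on the log2 scale, standard error 0.0569, limma adjusted p = 2.27e-07). ZNFX1, which starts 248 bases from ZFAS1, rose where ZFAS1 fell. It had 4898, 4004 and 4298 normalized counts in DMSO and 5170.4, 5227 and 5101 in BRL-50481 (0.24 on the log2 scale, standard error 0.0652, limma adjusted p = 0.00701), and the call was lost in limma without the trend (adjusted p = 0.0588, log2 fold change of ZNFX1 unchanged). ZBTB37, 800 bases from GAS5, had 52.6, 40.2 and 31.7 normalized counts in DMSO and 98.7, 108 and 135 in BRL-50481 (1.45 on the log2 scale, standard error 0.206, limma adjusted p = 4.95e-05). Of these 3, 1 moved with its host and 2 moved against it. None overlapped between the groups, which held for 32.3% of all genes tested in the lower and 31.9% in the higher direction. A noncoding gene 44 bases from SNHG16 was not analysed here.

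Among the other noncoding snoRNA hosts, most of those that passed were lower. Of 22 further noncoding hosts listed, 16 were tested, of which 8 fell, 1 rose and 7 did not pass, with a median log2 fold change of −0.34. SNHG32 (listed as C6orf48) and SNHG17 had log2 fold changes of −1.04 each (adjusted p = 3.99e-08 and 2.47e-07 in limma). SNHG29 (listed as LRRC75A-AS1), with 30265 ± 1504 normalized counts in DMSO (SD, n = 3), fell by 0.61, and SNHG3 fell by 0.55 (adjusted p = 3.06e-07 and 1.10e-06 in limma). The host that rose was SNHG18, named after its values were seen, at a log2 fold change of 0.45 (adjusted p = 0.00255 in limma). It had 271 ± 34.6 normalized counts in DMSO (SD, n = 3). The 7 that did not pass had DMSO means from 55.5 (SNHG21) to 586 (DANCR), levels at which small changes are harder to detect. SNHG9 and SNHG4, at 50.0 and 212, were called lower. These hosts too are named after their values were seen. With an adjusted p-value under 0.01 as the threshold, 5 of the 16 were lower, and without DMSO replicate 3 or with a replicate block, 2 were higher.

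Protein-coding hosts were followed in 2 groups, ribosomal protein genes and all others. All 24 ribosomal protein hosts listed were tested, of which 22 fell and 0 rose, with a median of −0.49. RPL13A fell by 0.46 (adjusted p = 1.39e-05 in limma), RPL5 by 0.59 and RPL3 by 0.40, and the largest falls were those of RPL23 (−0.96) and RPL37 (−0.84). RPL4 and RPL17, named after their values were seen, did not pass (−0.07 and 0.19). RPL17 had only 109 ± 40.9 normalized counts in DMSO, against 25361 ± 1335 for RPL4 (SD, n = 3 each). Their standard errors were 0.240 and 0.0482 in that order. Of 26 other protein-coding hosts tested, 16 fell, 4 rose and 6 did not pass, with a median of −0.19. They included the chaperone gene HSPA8 (−2.36, adjusted p = 7.87e-13 in limma), the growth-related TPT1 (−0.49) and the snoRNP protein gene NOP56 (−0.77). RACK1 (listed as GNB2L1), a ribosome-bound scaffold, was at −0.13 (limma, adjusted p = 0.0424), but its sign turned with quantile normalization. The 4 that rose, named after their values were seen, were EIF5 (0.59), SNX5 (0.34), IPO7 (0.16) and TAF1D (0.15). Without BRL-50481 replicate 1 or replicate 3, 2 were called higher, and the call of RACK1 was also lost without any library but DMSO replicate 1. GENCODE places at least 1 snoRNA gene on the same strand within every gene of these 3 lists and within 8 of the 9 hosts. The exception was GAS5, whose 11 snoRNAs come from RefSeq.

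Transcripts of the proteins that package snoRNAs were lower as well. Of 16 genes for core snoRNP proteins and their assembly factors, 13 fell, 0 rose and 3 did not pass, with a median log2 fold change of −0.51. FBL, the methyltransferase of box C/D particles, had 12128 ± 597 normalized counts in DMSO and 7107 ± 235 in treated cells (SD, n = 3 each, −0.77 on the log2 scale, limma adjusted p = 5.67e-08). NOP56, a box C/D core protein, fell by 0.77, and DKC1, the pseudouridine synthase of box H/ACA particles, by 0.63 (adjusted p = 4.27e-08 and 9.85e-08 in limma). The 3 that did not pass were RUVBL1, RUVBL2 and PIH1D1, which belong to the assembly chaperones. NOP56, NOP58 and DKC1 are also snoRNA hosts and stand in both lists.

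TOP transcripts outside the ribosome did not move as one. Of 19 listed, 11 fell, 4 rose and 4 did not pass, with a median of −0.17. The translation elongation factor EEF1A1, at 221673 ± 3266 normalized counts in DMSO, fell by 0.40 and the poly(A)-binding protein gene PABPC1 by 0.22, whereas the intermediate filament gene VIM rose by 0.58 and the splicing factor gene HNRNPA1 by 0.83 (adjusted p = 4.52e-06, 0.000415, 2.91e-07 and 1.23e-08 in limma, in that order). The other 2 that rose, named after their values were seen, were EIF4B (0.18) and EIF2S3 (0.12). With quantile normalization, 6 of the 19 were lower and the median was −0.076, and with the length and GC correction 13 were lower and the median was −0.29. TPT1, RACK1, EEF1B2 and EEF2 are snoRNA hosts too and stand in both lists. Across all 563 genes tested whose promoter entry has a run of at least 5 pyrimidines at the start, 36.2% were called lower and 27.2% higher, against 31.3% and 30.1% of the 10395 without one. Genes with both the run and TATAA numbered 21, of which 12 were lower and 3 higher, with a median of −0.19, and SNHG5, SNHG12 and ZFAS1 are among them.

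**Figure D4:**
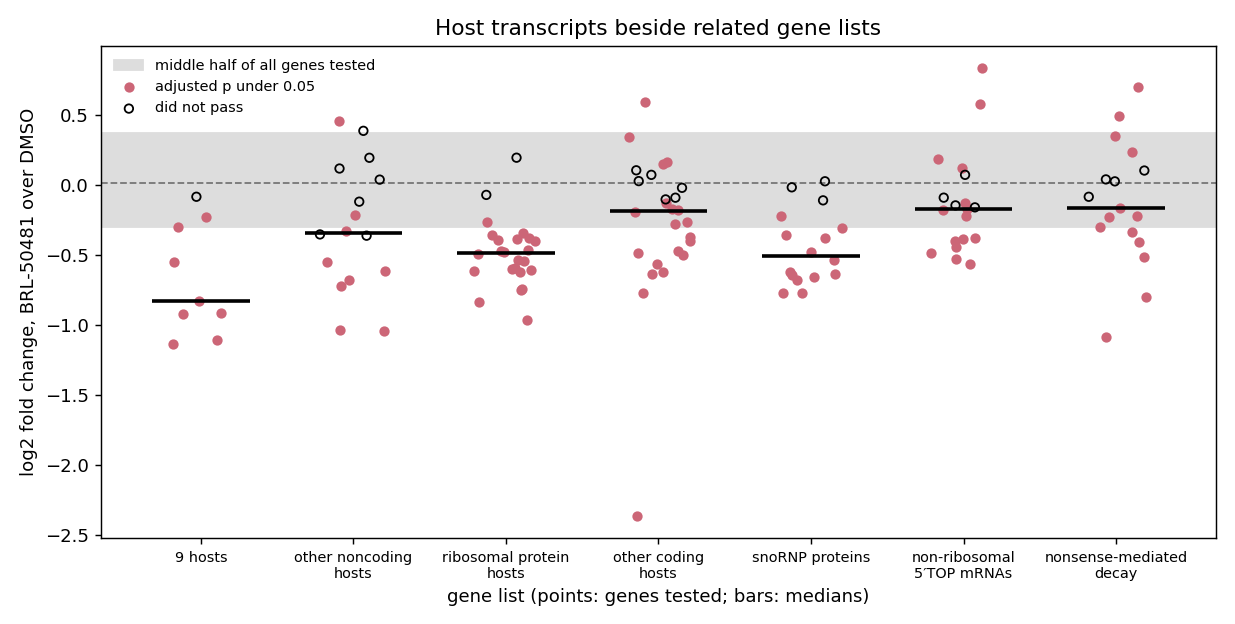
Log2 fold change of every tested gene in 7 lists, BRL-50481 over DMSO (filled, adjusted p-value under 0.05 in limma; open, did not pass; bars, list medians), with a grey band for the interquartile range of all genes tested and a dashed line at their median. The 9 hosts have the lowest median, −0.83, and the ribosomal protein hosts and snoRNP genes lie near −0.5.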

How the data were processed

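RNA-seq of 6 MDA-MB-231 libraries was analysed from 1 deposited table. The authors used STAR to align 76-base single-end reads to hg38, htseq-count (reverse strand, UCSC annotation) for gene counts and DESeq2 for normalization and testing. The deposited values are signal in the form of read counts divided by a size factor per library, called normalized counts here. In every library 100% of the values were whole multiples, within 0.001, of the smallest step, taken as 1 read. In 3 libraries this step was too close to 1 for the reads to be accepted as recovered counts, so no count model was run. The authors' fold changes and p-values in the table were not used. Every per-sample column was used.

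Of 15651 genes, 15246 reached 4 normalized counts in 3 or more libraries and were compared with limma 3.58.1 in R 4.3.3 (lmFit, then eBayes with its trend option) after adding 1 and taking log2. Fold changes are on that scale, which understates those of low genes. Benjamini-Hochberg adjustment covered every gene tested. The p-values rest on the spread between the 3 libraries of each group after limma draws it toward a trend over all genes. They are therefore not a measure of the replicate spread of a gene alone. For GAS5 the limma adjusted p-value was 4.24e-09 with the trend and 0.000349 without it. The test was run on simulated data with 200 changed genes and the same dispersion for every gene. It called 97% of log2 changes of 1, 69% of those of 0.5 and 0.0336% of unchanged genes. In the data 58.7% of genes were called, so the simulation does not show the error rates there. The genes and lists were chosen with earlier results of these data known, from general knowledge. Genes named are the 9 hosts, their neighbours with a start within 1 kb, the snoRNAs inside them, the 5 most similar profiles, and from each list the 3 most abundant and the 2 most changed genes that passed, or all that passed where 5 or fewer did. Positions, transcript lengths and GC content came from GENCODE 44 (3.3% of genes had no match), and snoRNA positions and start windows from RefSeq on GRCh38.p14. Same-numbered libraries of the groups shared little deviation (correlations 0.121, 0.104 and 0.0514 over 12251 genes), so they were not paired.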

Additional observations from a re-analysis of the deposited data

How the results depend on the processing

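Tried as 15 other settings were a pseudocount of 0.5 or 4, testing without the filter, a minimum mean of 20 normalized counts, quantile normalization, median centring, limma without the trend, a replicate block, a correction for transcript length and GC content, and leaving out each library in turn. In all 15, 7 or 8 of the 9 hosts were called lower and 0 higher, and the median of their log2 fold changes lay between −0.90 and −0.79. SNHG6 was the host whose call was lost, and SNHG12 was called in none. With the replicate block 8 hosts were lower and the median was −0.83. The replicate numbers were not shown to pair the libraries, since the correlation of the third pair was 0.0514 and BRL-50481 replicate 3 correlated best with DMSO replicate 2 (0.0607). The number of all genes lower ranged from 4027 without DMSO replicate 3 to 5176 with the length and GC correction. Among the values of 72 other single genes, 1034 kept direction and call, 77 lost the call and 14 gained it. The remaining 1 changed sign: the log2 fold change of GNB2L1 (RACK1) was 0.027 with quantile normalization (adjusted p = 0.597 in limma), and the cause was not tested. SNORD25, SNORD29, SNORD78, SNORD79, SNORA24 and SNORD87 lost their calls in some settings, and counts as low as theirs limit what could be detected. Count-based models, listed as alternatives, were not run.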

Other observations

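Nonsense-mediated decay, which degrades the spliced exons of GAS5 and related hosts, was represented by 17 genes, of which 9 were lower, 4 were higher and 4 did not pass, with a median log2 fold change of −0.17. UPF3B fell by 1.09, EIF4A3, a core protein of the exon junction complex, by 0.80, and the central helicase gene UPF1 by 0.51 (adjusted p = 4.92e-08, 4.75e-08 and 1.18e-06 in limma). SMG1, the kinase that phosphorylates UPF1, was higher at 0.35 (adjusted p = 0.0189 in limma), with group means of 4328 ± 1030.1 and 5408 ± 67.5 normalized counts (SD, n = 3 each). This call was lost without any one of DMSO replicates 2 and 3 or BRL-50481 replicates 1 and 2 (adjusted p = 0.0656, 0.0778, 0.0718 and 0.0547 in limma, log2 fold change of SMG1 0.22 to 0.36). The groups of SMG1 overlapped, since DMSO replicate 1, at 5500, lay above the treated libraries at 5465, 5333 and 5424. The others that rose, named after their values were seen, were XRN1 (0.70), SMG6 (0.49) and SMG9 (0.24).

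Genes of mTOR signalling and TOP translation showed no common direction. Of 14 tested, 4 were lower, 3 were higher and 7 did not pass, with a median of −0.0065 that took either sign over the other settings. Without DMSO replicate 1, 5 were higher. EIF4E, the cap-binding protein gene, fell by 0.63 and its inhibitor EIF4EBP1 by 0.47 (adjusted p = 1.38e-06 and 8.38e-05 in limma). RPS6KB1, an mTOR substrate kinase, rose by 0.26 and MTOR by 0.21 (adjusted p = 0.00267 and 0.0285 in limma), and the call of MTOR was lost in 7 of the 15 other settings. TSC2 (0.36) and RPS6KB2 (−0.30), named after their values were seen, completed the genes that passed. DEPTOR, with 54.8 ± 6.57 normalized counts in DMSO (SD, n = 3), fell by 0.57 (adjusted p = 0.0223 in limma), a call lost without DMSO replicate 2 (0.0845) or BRL-50481 replicate 1 (0.0631) for the log2 fold change of DEPTOR.

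The profiles most like the mean profile of the 9 hosts over the 6 libraries, among 11446 other genes averaging 100 or more normalized counts, were those of NARFL, PSMA7, C19orf53, PRPS1 and COA4. Their Pearson correlations were 0.9993 to 0.9997, a description over 6 libraries that share the difference between the groups. PSMA7, a proteasome subunit, fell by 0.59 and PRPS1, which makes the ribose phosphate donor of nucleotide synthesis, by 0.43 (adjusted p = 1.45e-06 and 4.17e-05 in limma).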
